A study of Mus with 12 samples.

Results

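The 9 genes described here encode proteins that bring fatty acids into a cell and activate them: lipoprotein lipase (Lpl), the fatty acid transport proteins Slc27a1, Slc27a3, Slc27a4 and Slc27a6, and the long-chain acyl-CoA synthetases Acsl1, Acsl3, Acsl4 and Acsl5. They were taken by symbol from a deposited table of 27294 genes, all 9 were found in it, and all 9 passed the filter on low counts that left 17291 genes for testing. Expression was measured by poly(A) RNA sequencing in 12 libraries of macrophages from the mouse peritoneal cavity, a primary cell type per the labels. Untreated wild-type (WT) cells, WT cells labelled oxLDL, untreated knockout (KO) cells and KO cells labelled oxLDL had n = 3 libraries each. OxLDL stands for oxidised low-density lipoprotein, a cholesterol-carrying particle that macrophages take up through scavenger receptors. The libraries labelled oxLDL are titled LDL, and those called untreated carry no treatment label. The genotype label is KO with no gene, promoter or Cre line, and the series title names the cell cycle kinase WEE1. No strain, age, dose or time is given in the labels, and part of the protocol text speaks of adipose RNA. Nothing states that replicates came from separate animals or cultures, so the p-values measure the spread between these libraries, which may be technical.

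Macrophages secrete lipoprotein lipase, which cuts triglycerides in lipoprotein particles and releases fatty acids at the cell surface. Fatty acid transport proteins (FATPs, the SLC27 family) promote entry of long-chain fatty acids and many of them also have acyl-CoA synthetase activity. Long-chain acyl-CoA synthetases (ACSLs) join the fatty acid to coenzyme A, which traps it in the cell and opens the routes to oxidation, phospholipids, triglycerides and cholesteryl esters. In macrophages Acsl1 is known as a gene raised by inflammatory signals, and Lpl and Cd36 are known targets of the nuclear receptor PPARγ.

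Library totals ran from 53588814 to 76809931 counts. All 8 macrophage markers were detected in every library, with summed FPKM (fragments scaled to transcript length and library size) of 21008 to 21406 in untreated WT, 14597 to 15592 in WT with oxLDL, 11086 to 11795 in untreated KO and 10653 to 11295 in KO with oxLDL. Most of that sum was Lyz2, at 18498 FPKM in untreated WT and 8857 in untreated KO. Of the 8, 7 were called lower and 1, Cd68 (1629 to 2001 FPKM), higher in untreated KO, and with oxLDL in WT Adgre1 and Fcgr1 were called higher, at log2 changes of 0.89 and 2.09. The 2 adipocyte markers in the table, Adipoq and Plin1, summed to at most 0.101 FPKM in any library. Sums for B cell, T cell, neutrophil, mast cell, fibroblast with mesothelial, and endothelial markers stayed at or under 11.7 FPKM. In bulk RNA, fewer cells of a type and less RNA per cell cannot be told apart, and the part of the macrophage marker difference in the results was not tested. Wee1 itself was at 3.05 ± 0.23 FPKM (SD, n = 3) in untreated WT, 1.62 ± 0.17 in WT with oxLDL, 1.48 ± 0.23 in untreated KO and 1.38 ± 0.19 in KO with oxLDL. FPKM values are divided by library totals, whereas the log2 changes below are on the TMM scale of edgeR, which corrects for a few abundant genes taking more of a library. For oxLDL in WT the median log2 change over all genes tested was -0.06 on the TMM scale and -0.46 on library totals, so an FPKM ratio and a log2 change of 1 gene can differ.

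Lpl was the member with the highest FPKM in both KO groups. Its FPKM in the 3 untreated WT libraries was 64.9, 63.7 and 66.0, and in WT with oxLDL it was 40.8, 39.5 and 42.0. In untreated KO it was 86.7, 81.5 and 84.1, and in KO with oxLDL it was 79.2, 84.7 and 75.0. The WT groups lay apart from each other and below every KO library, and the KO groups overlapped. In WT, Lpl fell by 0.26 ± 0.04 (SE) with oxLDL on the log2 scale (adjusted p = 0.000164; every adjusted p here comes from the edgeR quasi-likelihood fit, with the Benjamini-Hochberg method over all genes tested), and by 0.67 on library totals. Untreated KO cells were higher than untreated WT cells by a log2 of 0.48 ± 0.04 (adjusted p = 7.08e-07), and with oxLDL the genotypes differed by 0.66 ± 0.04 (adjusted p = 6.39e-09).

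**Figure D1:**
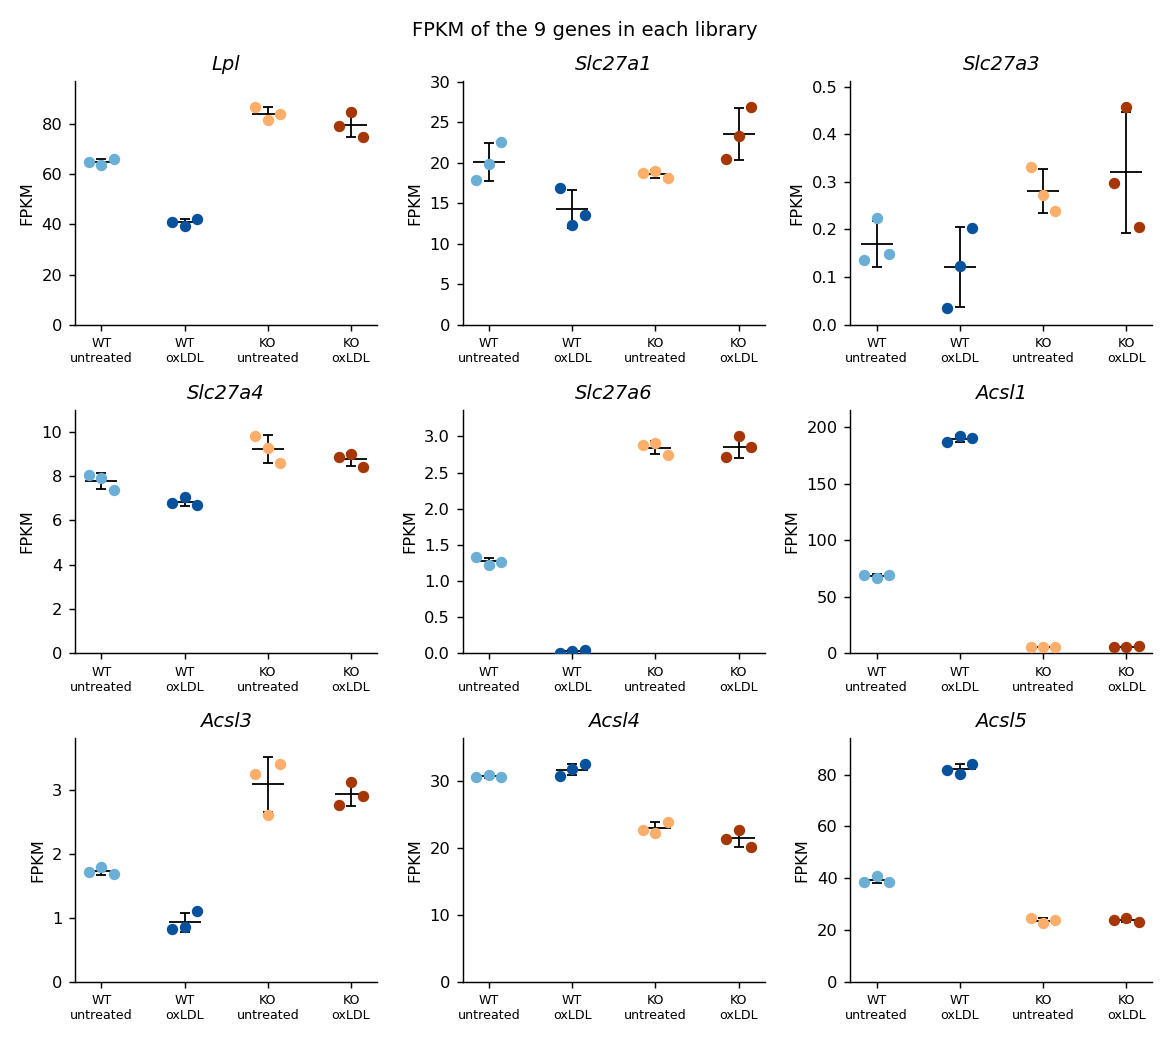
FPKM (vertical axis, from 0 in each panel) of the 9 genes by group (horizontal axis), with a point for each of the 3 libraries and a bar for the group mean. Acsl1 and Acsl5 are highest in WT with oxLDL, whereas Lpl, Acsl3, Slc27a4 and Slc27a6 are lower in both WT groups than in both KO groups.

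Slc27a1 (FATP1) and Slc27a4 (FATP4) made up most of the transport protein transcripts. Slc27a1 measured 17.9, 19.9 and 22.6 FPKM in untreated WT, 16.9, 12.3 and 13.6 in oxLDL-treated WT, 18.8, 19.0 and 18.1 in untreated KO, and 20.5, 23.3 and 26.9 in KO with oxLDL. In FPKM, its untreated groups overlapped, and its oxLDL groups lay apart, with KO higher. On the TMM scale its oxLDL groups overlapped as well. The log2 difference between genotypes was 0.42 ± 0.11 with oxLDL (adjusted p = 0.00531; 0.72 on library totals) and -0.01 ± 0.11 without it (adjusted p = 0.98). The oxLDL change of Slc27a1 in WT, -0.09 ± 0.11, did not pass on the TMM scale (adjusted p = 0.566) and was called lower on library totals, at -0.50.

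Slc27a4 averaged 7.78 ± 0.36 FPKM (SD, n = 3) in untreated WT, 6.83 ± 0.19 in WT with oxLDL, 9.21 ± 0.63 in untreated KO and 8.76 ± 0.29 in KO with oxLDL. In FPKM, the WT groups did not overlap each other or the KO groups. On the TMM scale, WT with oxLDL overlapped KO with oxLDL. The log2 difference between genotypes with oxLDL was 0.06 ± 0.06 on that scale and was not called (adjusted p = 0.487), against 0.36 on library totals. Untreated KO was higher than untreated WT by a log2 of 0.35 ± 0.06 (adjusted p = 0.00069). The oxLDL change in WT turned with the scaling: it was 0.22 ± 0.07 on the TMM scale (adjusted p = 0.0115), -0.19 on library totals and -0.17 in limma on log2(FPKM + 1). With upper quartile scaling this change was not called. Without untreated WT replicate 3 the TMM value was 0.17 and was not called.

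Slc27a6 (FATP6), best known from heart, was close to 0 in WT cells with oxLDL and present in the other groups. Untreated WT libraries had 1.33, 1.22 and 1.27 FPKM, from 174 to 266 counts each. WT libraries with oxLDL were listed at 0, 0.0283 and 0.047 FPKM, from 0, 4 and 10 counts. Untreated KO had 2.89, 2.91 and 2.75 FPKM and KO with oxLDL 2.71, 3.01 and 2.85, from 537 to 598 counts each. The untreated WT libraries therefore lay between the WT libraries with oxLDL and all 6 KO libraries, with no overlap. In WT, Slc27a6 fell by 5.15 ± 0.39 with oxLDL on the log2 scale (adjusted p = 4.43e-08), and the size rests on the few counts left: it was -4.51 without WT oxLDL replicate 1 and -6.26 without WT oxLDL replicate 3. In limma, where a pseudocount of 1 FPKM shrinks changes of scarce genes, it was -1.15. The KO cells were higher by a log2 of 1.26 ± 0.26 untreated (adjusted p = 0.00146) and by 6.42 ± 0.39 with oxLDL (adjusted p = 2.01e-09), the latter 5.77 and 7.51 without those same libraries. In limma on log2(FPKM + 1) these were 0.76 and 1.91.

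Slc27a3 (FATP3) was the least abundant of the 9 in untreated WT and in both KO groups, with 8 to 94 counts over the 12 libraries. Its FPKM was 0.135 to 0.224 in untreated WT, 0.0357 to 0.204 in WT with oxLDL, 0.239 to 0.331 in untreated KO and 0.205 to 0.457 in KO with oxLDL. No contrast called it on the TMM scale with all 12 libraries. The log2 difference was 0.83 ± 0.50 for KO against WT untreated (adjusted p = 0.252) and 1.07 ± 0.51 with oxLDL (adjusted p = 0.0865). Without WT oxLDL replicate 3 the latter was 1.70 and was called.

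Acsl1, which activates long-chain fatty acids at the outer mitochondrial membrane and the endoplasmic reticulum, had the widest difference between genotypes among the synthetases. Untreated WT libraries had 69.4, 66.1 and 69.2 FPKM, and WT libraries with oxLDL had 186, 192 and 190. Untreated KO libraries had 5.45, 5.16 and 5.89 FPKM, and KO libraries with oxLDL had 5.52, 5.44 and 6.12. The KO groups overlapped each other and lay far under every WT library. By mean FPKM, Acsl1 was 12.4-fold higher in WT than in KO cells untreated and 33.3-fold higher with oxLDL, and oxLDL raised it 2.78-fold in WT. The fitted log2 changes were 1.88 ± 0.06 for oxLDL in WT (adjusted p = 1.29e-12), -3.53 ± 0.06 for KO against WT untreated (adjusted p = 2.22e-14) and -5.36 ± 0.06 with oxLDL (adjusted p = 9.62e-17).

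Acsl5, a mitochondrial and endoplasmic reticulum synthetase, followed the order of groups seen for Acsl1 over a narrower range. Its FPKM was 38.5, 41.0 and 38.6 in untreated WT, 81.8, 80.4 and 84.1 in oxLDL-treated WT, 24.5, 22.6 and 23.9 in untreated KO and 23.9, 24.8 and 23.0 in KO with oxLDL. All 6 WT libraries were above all 6 KO libraries, and oxLDL separated the WT groups but not the KO groups. Acsl5 rose by a log2 of 1.47 ± 0.04 with oxLDL in WT (adjusted p = 1.45e-12), and KO was lower than WT, at -0.63 ± 0.04 untreated (adjusted p = 2.8e-08) and -2.08 ± 0.04 with oxLDL (adjusted p = 1.24e-14). Acsl4, the synthetase that prefers arachidonic acid and is known for its part in ferroptosis, was at 30.6 to 31.0 FPKM in untreated WT, 30.8 to 32.6 in WT with oxLDL, 22.3 to 23.9 in untreated KO and 20.2 to 22.8 in KO with oxLDL. Every WT library was above every KO library. KO was lower by a log2 of -0.31 ± 0.05 untreated (adjusted p = 8.95e-05) and -0.87 ± 0.05 with oxLDL (adjusted p = 5.05e-10; -0.56 on library totals). The oxLDL rise of Acsl4 in WT, 0.45 ± 0.05 on the TMM scale (adjusted p = 1.08e-06), was 0.05 and not called on library totals.

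Acsl3, the synthetase of the endoplasmic reticulum and lipid droplets, went the other way and was the least abundant of the 4 ACSL members. It measured 1.71, 1.79 and 1.68 FPKM in untreated WT, 0.827, 0.858 and 1.10 in oxLDL-treated WT, 3.25, 2.61 and 3.41 in untreated KO, and 2.77, 3.14 and 2.90 in KO with oxLDL. The 3 levels (WT with oxLDL, untreated WT, both KO groups) did not overlap. Reads where Acsl3 overlaps the gene Utp14b cannot be told apart in any group, as given below. Acsl3 fell by 0.48 ± 0.13 on the log2 scale with oxLDL in WT (adjusted p = 0.0064) and by 0.89 on library totals. KO was higher by 0.94 ± 0.13 untreated (adjusted p = 3.58e-05; 0.58 in limma on log2(FPKM + 1)) and by 1.35 ± 0.13 with oxLDL (adjusted p = 4.05e-07).

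**Figure D2:**
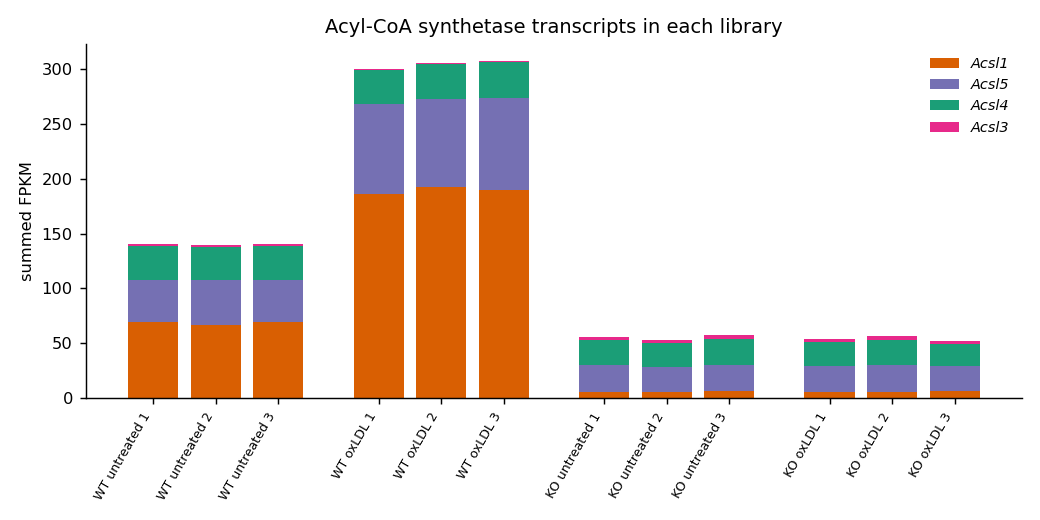
Summed FPKM (vertical axis) of Acsl1, Acsl3, Acsl4 and Acsl5 in each of the 12 libraries (horizontal axis), with 1 coloured segment per gene. The WT bars with oxLDL reach about 304 FPKM, most of it Acsl1, and in all 6 KO bars Acsl1 is a small part.

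The makeup of the synthetase pool differed between genotypes. Summed over the 4 ACSL genes, FPKM was 140.1 ± 0.19 (SD, n = 3) in untreated WT, 304 ± 4.0 in WT with oxLDL, 55.2 ± 2.4 in untreated KO and 53.9 ± 2.0 in KO with oxLDL. Of that sum Acsl1 made up 48.7% ± 1.2 in untreated WT and, with oxLDL, 62.3% ± 0.64, against 9.96% ± 0.31 in untreated KO and 10.6% ± 1.0 in KO with oxLDL. In KO the sum was mostly Acsl5 (42.9% untreated) and Acsl4 (41.6% untreated), and Acsl3 took 5.58% against 1.23% in untreated WT. The 4 transport proteins summed to 29.4 ± 2.0 FPKM in untreated WT, 21.2 ± 2.2 in WT with oxLDL, 31.0 ± 1.2 in untreated KO and 35.5 ± 3.0 in KO with oxLDL, of which Slc27a1 was 60.1% to 68.4% by group mean. Slc27a6 was 4.35% of the transport protein sum in untreated WT, 0.125% in WT with oxLDL, 9.2% in untreated KO and 8.08% in KO with oxLDL. These shares compare levels per transcript length and depend on the lengths the authors used. The sums also depend on library totals. On the TMM scale with oxLDL in WT, Slc27a1 was not called (-0.09) and Slc27a4 was called higher (0.22), so the lower transport protein sum there is not given as a fall.

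By FPKM, the order in untreated WT was Acsl1, Lpl, Acsl5, Acsl4, Slc27a1, Slc27a4, Acsl3, Slc27a6 and Slc27a3, with no overlap between neighbours. With oxLDL in WT, Acsl5 stood above Lpl, and Slc27a3 and Slc27a6 at the bottom overlapped. In untreated KO, Lpl led, Acsl5 and Acsl4 overlapped, and Acsl1 was in the sixth place, under Slc27a4. In KO with oxLDL, Slc27a1 overlapped both Acsl5 above it and Acsl4 below it, under Lpl, and Acsl1 was again under Slc27a4. Acsl3 and Slc27a6 overlapped in both KO groups.

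The contrast of oxLDL against untreated cells in WT called 7 of the 9 genes, where 51.2% of all genes tested were called. Acsl1, Acsl5, Acsl4 and Slc27a4 were called higher (background 23.9%) and Slc27a6, Acsl3 and Lpl lower (background 27.2%). On library totals 7 were also called, with Acsl1 and Acsl5 higher and Slc27a6, Acsl3, Lpl, Slc27a1 and Slc27a4 lower. Over all genes the share of calls that were higher was 46.8% with TMM, 21.1% on library totals and 23.1% in limma on log2(FPKM + 1). FPKM values of the groups did not overlap for 7 of 9 genes, against 66.7% of all genes tested. On the TMM scale the groups overlapped for Slc27a1 and Slc27a3, and those of Slc27a4 lay apart with oxLDL higher instead of lower. The median log2 change of the 9 was -0.07, near that of all genes, -0.06.

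**Figure D3:**
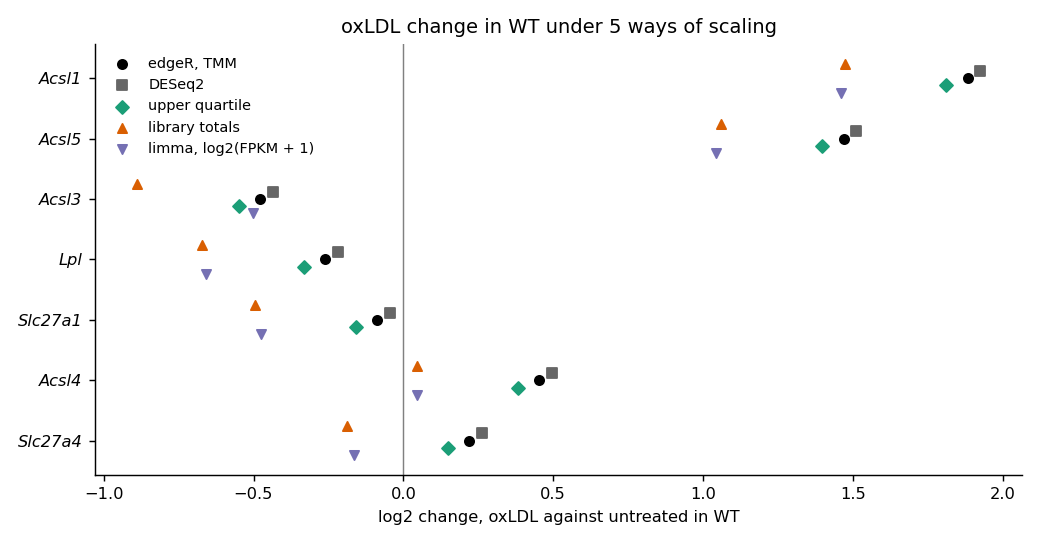
Log2 change with oxLDL in WT (horizontal axis) for 7 of the genes under edgeR with TMM, DESeq2, upper quartile scaling, library totals, and limma on log2(FPKM + 1). Acsl1 and Acsl5 stay right of 0 and Lpl and Acsl3 left of it in all 5, whereas Slc27a4 is at 0.22 with TMM and -0.19 on library totals.

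In KO cells, oxLDL called none of the 9 genes in edgeR, DESeq2 or limma, where edgeR called 0.0116% of all genes tested (2 genes) and DESeq2 called 110 genes. At an unadjusted p under 0.05 edgeR passed 1211 genes and 1 of the 9, Slc27a1, at a log2 of 0.34 ± 0.11 (adjusted p = 0.465, 95% interval 0.10 to 0.58). The intervals were narrow for the abundant synthetases, -0.07 to 0.17 for Acsl1 and -0.08 to 0.11 for Acsl5, and wider for Slc27a6, -0.53 to 0.54. Slc27a1 was also the member whose KO groups did not overlap in FPKM (1 of 9, against 12.9% of all genes tested). The median log2 change of the 9 was 0.0036 and that of all genes was -0.0038.

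Between untreated KO and untreated WT, 7 of the 9 genes were called, against 31% of all genes tested. Lpl, Slc27a4, Slc27a6 and Acsl3 were higher in KO (background 14.8%) and Acsl1, Acsl4 and Acsl5 lower (background 16.2%). The groups did not overlap for 8 of 9 genes, all but Slc27a1, against 46.4% of all genes tested. The median log2 difference of the 9 was 0.35, and that of all genes was -0.01. Over all genes, 47.8% of calls were higher with TMM and 31.5% on library totals. The direction of each of these 7 members was the same under both. This contrast and that of oxLDL in WT share the 3 untreated WT libraries, so the values of each gene in them are given side by side and are not independent.

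With oxLDL, KO and WT differed for 7 of the 9 genes, against 57.9% of all genes tested. Lpl, Slc27a1, Slc27a6 and Acsl3 were higher in KO (background 30.6%) and Acsl1, Acsl4 and Acsl5 lower (background 27.4%). On library totals Slc27a3 and Slc27a4 were also called higher, at 1.38 and 0.36, and over all genes the share of calls that were higher was 52.8% with TMM and 69.5% on library totals. FPKM values did not overlap for 9 of 9 genes, against 66.9% of all genes tested. For Slc27a3 the gap was small, with WT reaching 0.204 and KO starting at 0.205 FPKM. On the TMM scale the groups overlapped for Slc27a1, Slc27a3 and Slc27a4. The median log2 difference was 0.42 for the 9 and 0.05 for all genes.

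The interaction, the difference between the oxLDL changes of the genotypes (KO minus WT), called 7 of the 9 genes, against 41.7% of all genes tested. Slc27a6, Slc27a1 and Lpl had a positive difference (background 22.1%) and Acsl1, Acsl5, Acsl4 and Slc27a4 a negative one (background 19.6%). On library totals 4 members were called with a positive and 2 with a negative difference, and over all genes the share of calls that were positive was 53% with TMM and 79.6% on library totals. Acsl1 had -1.83 ± 0.08 (adjusted p = 1.45e-10), Acsl5 -1.46 ± 0.06 (adjusted p = 1.36e-10) and Slc27a6 5.16 ± 0.48 (adjusted p = 6.34e-07), and Slc27a6 was 4.51 without WT oxLDL replicate 1 and 6.26 without WT oxLDL replicate 3 (1.15 in limma on log2(FPKM + 1)). Acsl4 had -0.55 ± 0.07 (adjusted p = 7.83e-06), which was -0.14 and not called on library totals. The calls of the smaller differences depended on single libraries and on the scaling: Lpl, 0.18 ± 0.06 (adjusted p = 0.0299), was called without WT oxLDL replicate 3, KO oxLDL replicate 3, untreated WT replicate 2 or untreated KO replicate 1 and lost without any of the others, and on library totals it was called at 0.60. Slc27a1, 0.43 ± 0.16 (adjusted p = 0.0453), was called without replicate 1 of WT oxLDL, KO oxLDL or untreated WT and lost without any of the others, and on library totals it was called at 0.84. Slc27a4, -0.29 ± 0.09 (adjusted p = 0.0192), was lost without untreated WT replicate 3 or untreated KO replicate 1, both at -0.24, and was 0.12 on library totals. Acsl3, 0.40 ± 0.18 (adjusted p = 0.088), was not called, and was called at 0.55 without WT oxLDL replicate 3 and at 0.82 on library totals.

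**Figure D4:**
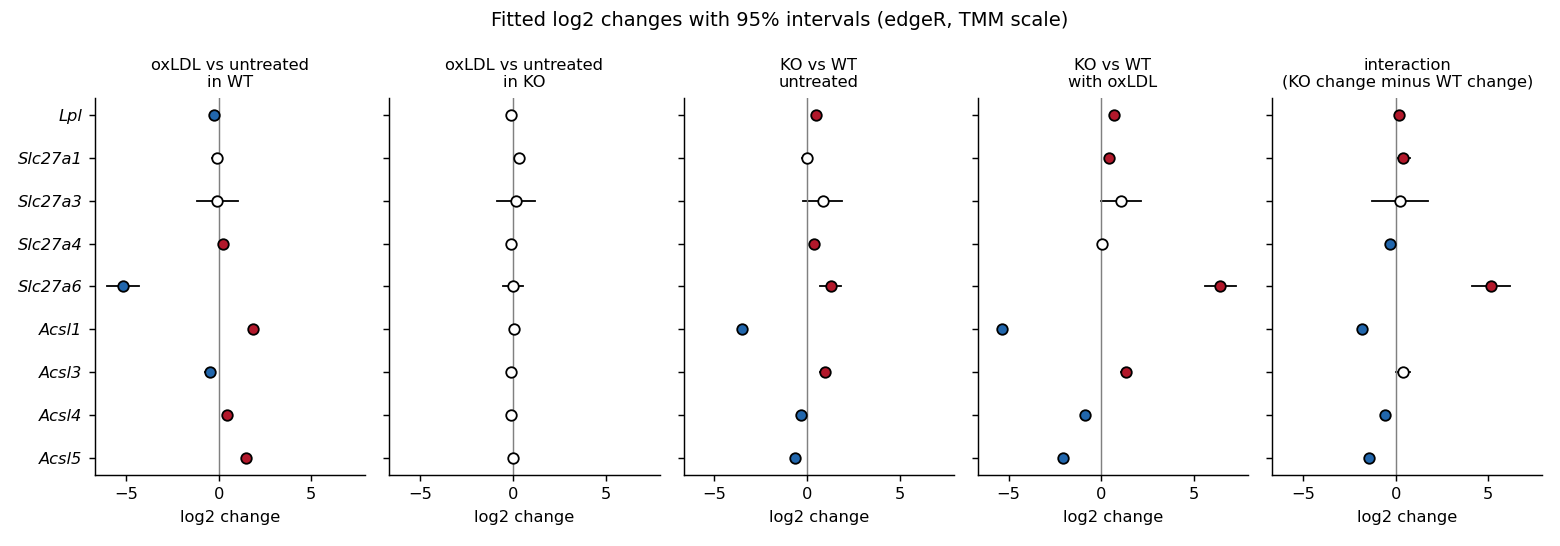
Fitted log2 changes (horizontal axis) with 95% intervals for the 9 genes in the contrasts between the 4 groups, on the TMM scale of edgeR. With oxLDL in KO every interval but that of Slc27a1 spans 0, and Acsl1 and Slc27a6 lie farthest from 0 on opposite sides between genotypes.

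The genes lie apart in the genome for the most part, with positions given as in the deposited table, whose coordinates match GRCm38. Lpl (ENSMUSG00000015568) is at 8:68880491-68906934, Slc27a1 (ENSMUSG00000031808) at 8:71568882-71587301 and Acsl1 (ENSMUSG00000018796) at 8:46471037-46536051, all on the plus strand of chromosome 8. Slc27a3 (ENSMUSG00000027932) is at 3:90385239-90389938 on the minus strand and Slc27a4 (ENSMUSG00000059316) at 2:29802634-29817522 on the plus strand. Acsl3 (ENSMUSG00000032883) is at 1:78657825-78707743 on the plus strand, Acsl4 (ENSMUSG00000031278) at X:142317993-142390535 on the minus strand and Acsl5 (ENSMUSG00000024981) at 19:55251938-55295678 on the plus strand. Slc27a6 has the identifier ENSMUSG00000024600. Other genes of the table overlap 3 of them, and since the sources used here do not say how reads were counted or whether strand was used, reads in the overlaps cannot be told apart. Utp14b, on the strand of Acsl3, had 217 to 353 counts in the WT libraries with oxLDL, where Acsl3 had 213 to 378. It had 323 to 387 in untreated WT (Acsl3 450 to 602), 515 to 646 in untreated KO (Acsl3 912 to 1168) and 591 to 784 in KO with oxLDL (Acsl3 972 to 1094). Like Acsl3, Utp14b had higher FPKM in both KO groups than in both WT groups. The level of Acsl3 in every group, and its differences between genotypes, are therefore uncertain. Gm45244, opposite Acsl1, averaged 2.28 FPKM in WT with oxLDL and at most 0.173 in the other groups. Zdhhc6, opposite Acsl5, averaged 6.56 FPKM in untreated WT, 11.9 in WT with oxLDL, 5.27 in untreated KO and 5.29 in KO with oxLDL.

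In the pathway annotation deposited with the table, 8 of the 9 genes, all but Slc27a3, carried the term for PPAR signaling, which was given to 64 genes in all. The 4 ACSL genes shared the terms for fatty acid degradation (40 genes), fatty acid biosynthesis (13 genes), ferroptosis (40 genes), peroxisome (77 genes) and adipocytokine signaling (64 genes).

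The partners of lipoprotein lipase include proteins that fold, carry, inhibit or cleave it and related lipases. Of 22 listed, 17 were tested. With oxLDL in WT, 4 were higher and 6 lower on the TMM scale (2 and 8 on library totals), or 58.8% called against 51.2% of all genes, with a median log2 change of -0.42. Lipg (endothelial lipase) rose by 6.31 ± 0.27 and Furin, a protease that cleaves lipases and their inhibitors, by 1.63 ± 0.08. Sort1, a sorting receptor that binds Lpl, fell by 2.14 ± 0.06 and Lipa, the lysosomal acid lipase, by 1.46 ± 0.03 (all 4 with adjusted p in edgeR of 5.64e-10 or lower). Untreated KO cells were higher for 8 partners and lower for 1 (7 and 2 on library totals), or 52.9% called against 31% of all genes, with a median of 0.31. Among them were Sort1 at 1.05 ± 0.05, Lrp1, a receptor that takes up lipoprotein remnants, at 0.89 ± 0.07, and Angptl4, an inhibitor of Lpl, at 1.14 ± 0.29 (adjusted p = 0.00757). The 1 lower was Apoc2, the activator of Lpl, at -1.72 ± 0.20. Angptl4 was scarce, at 0.326 FPKM in untreated WT and 0.672 in untreated KO, and its oxLDL change in WT, 0.41 ± 0.29, was not called (adjusted p = 0.274).

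All 12 listed genes of fatty acid uptake and binding were tested. With oxLDL in WT 3 were higher and 8 lower (2 and 8 on library totals), or 91.7% called against 51.2% of all genes, with a median log2 change of -0.48. Fabp3 rose by 2.22 ± 0.09 and Cav1, the caveolae protein, by 2.83 ± 0.15, whereas the binding proteins Fabp4 and Fabp7 fell by 2.06 ± 0.10 and 1.26 ± 0.13. Untreated KO cells were higher for 6 of the 12 and lower for 2 (4 and 2 on library totals), or 66.7% called against 31% of all genes, with Fabp4 at 1.08 ± 0.09, Fabp7 at 0.95 ± 0.12, Fabp3 at -1.17 ± 0.09 and Cav1 at -0.78 ± 0.15. Cd36, the scavenger receptor that takes up oxLDL and fatty acids, averaged 207 FPKM in untreated WT, 124 in WT with oxLDL, 364 in untreated KO and 352 in KO with oxLDL. Its log2 change was -0.34 ± 0.05 with oxLDL in WT (adjusted p = 2.2e-05) and 0.92 ± 0.05 for KO against WT untreated (adjusted p = 9e-10).

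Of 10 listed nuclear receptors and coactivators of lipid genes, 9 were tested and Ppara was not. With oxLDL in WT 3 were higher and 5 lower (1 and 5 on library totals), or 88.9% called against 51.2% of all genes, with a median of -0.47. Pparg averaged 8.16 FPKM in untreated WT, 0.714 in WT with oxLDL, 28.5 in untreated KO and 27.8 in KO with oxLDL. It fell by 3.09 ± 0.08 with oxLDL in WT (adjusted p = 2.76e-13), and untreated KO was higher than untreated WT by 1.91 ± 0.06 (adjusted p = 9.12e-12). Nr1h3 (LXRα) rose by 0.99 ± 0.06 with oxLDL in WT, and the coactivators Ppargc1b and Ppargc1a fell by 0.97 ± 0.14 and 2.34 ± 0.69. Between untreated KO and WT 2 were higher and 2 lower (1 and 3 on library totals), or 44.4% called against 31% of all genes: Pparg and Ppargc1a, at 1.56 ± 0.56, against Nr1h2, at -0.90 ± 0.28, and Ppargc1b, at -0.47 ± 0.13. The Ppargc1a call between genotypes was lost on library totals, with no filter and with the replicate block. Its fall with oxLDL in WT was not called in the fit of the compared groups alone. Ppargc1a was scarce, at 0.069 FPKM in untreated WT, 0.011 in WT with oxLDL and 0.197 in untreated KO.

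Of 12 other genes of the transport protein and synthetase families, 9 were in the table and 5 passed the filter. With oxLDL in WT 4 were lower and none higher, also on library totals, where 27.2% of all genes were called lower with TMM: Acsf2 fell by 2.18 ± 0.20, the acetyl-CoA synthetases Acss2 and Acss1 by 0.93 ± 0.13 and 0.62 ± 0.11, and Acsf3 by 0.57 ± 0.12. Between untreated KO and WT 2 of the 5 were called, against 31% of all genes: Acss1 was higher at 0.71 ± 0.11 and Acss2 lower at -1.24 ± 0.13. With oxLDL in KO the edgeR fit of the 4 groups called none of the genes of these 4 lists, and 4 had an unadjusted p under 0.05: Apoe and Furin among the partners, and Nr1h2 and Srebf1 among the receptors. Other fits called some of them: edgeR on the KO groups alone called Nr1h2 at 0.97 and Srebf1 at 0.45, and DESeq2 called Apoe at 0.30 and Srebf1 at 0.44.

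**Figure D5:**
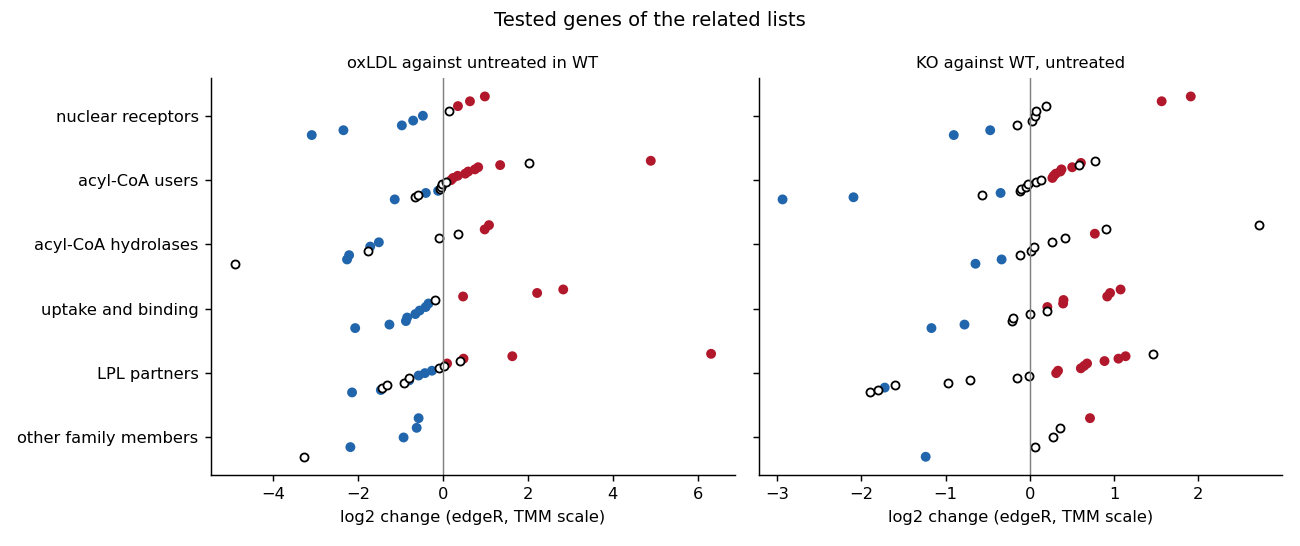
Log2 changes (horizontal axis, edgeR on the TMM scale) of the tested genes of 6 related lists (vertical axis), for oxLDL in WT and for KO against WT untreated. Red points were called higher, blue points lower and open points were not called, and in the KO against WT panel each list holds points of both colours.

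The genes whose profile over the 12 libraries lay nearest to each member were found by the root mean square difference of centred log2 CPM. Nearest to Acsl1 were Clec4e, a receptor for mycobacterial glycolipids, at 0.113 and Irf1, an interferon regulatory factor, at 0.134, where Acsl1 itself ranged over 5.51. Clec4e averaged 459 FPKM in untreated WT, 1216 in WT with oxLDL, 40.4 in untreated KO and 40.3 in KO with oxLDL. Nearest to Acsl5 were Tent5a at 0.0734 and Hmox1 (heme oxygenase) at 0.0745. Hmox1 averaged 281, 567, 171 and 178 FPKM in the same order of groups. Nearest to Lpl were Fbxo28 at 0.0513 and Hexa, a lysosomal hexosaminidase subunit, at 0.0527. Acsl4 had Cggbp1 at 0.0529 and the costimulatory gene Cd80 at 0.0586, Acsl3 had Vkorc1l1 at 0.115 and Ppp1r3b at 0.128, and Slc27a4 had Crebl2 at 0.0543 and Scpep1 at 0.0557. Slc27a1 had Gigyf1 at 0.0829 and Ints1 at 0.0915. The distances were wider for Slc27a6, which ranged over 9.09 itself, and for Slc27a3: 0.369 to Gm47815 and 0.522 to Armc2 for Slc27a6, and 0.37 to Zfp420 and 0.372 to Gm37127 for Slc27a3.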

How the data were processed

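Paired-end reads of poly(A) RNA came from an Illumina NovaSeq, per the labels' protocols, and HISAT2 version 2.0, Bowtie version 0.12.2 and build mm8 are named in the submitters' processing notes. The deposited coordinates overlapped those of GRCm38.p6 for 99.93% of 21990 genes matched by identifier, so positions are given as GRCm38. The deposited table holds raw read counts per gene, made by the authors with a counter that is not given in the sources used here, and FPKM, which the authors computed from library size and transcript length, per the file headers. FPKM is used for levels and counts for tests.

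Counts were tested with edgeR 4.0.16 in R 4.3.3 (TMM, filterByExpr, glmQLFit and glmQLFTest) on all 4 groups together with no block. Calls required an adjusted p (Benjamini-Hochberg, over 17291 genes) under 0.05. SEs were computed from the F statistic, and intervals are at 95%. An exact permutation test of 3 against 3 libraries cannot go below p = 0.1, so none was used. The script was tested on simulated counts. No pair of libraries was identical, and 54 rows repeated a symbol. Alternatives were DESeq2 1.42.0, limma 3.58.1 on log2(FPKM + 1) and log2(FPKM + 0.1), other scalings, no filter, a replicate block, fits of the compared groups alone, and leaving out each library.

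The members and gene lists were chosen with earlier results of these data known. Named from the lists were, per list and contrast, up to 4 called genes of largest change, with Cd36, Pparg and Angptl4. Apoe and Srebf1, and the list genes named for oxLDL in KO, fall outside this rule and were chosen after their values were seen. For each member the 2 nearest profiles were named, from log2 CPM with a prior count of 1. No sequences were used here.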

Additional observations from a re-analysis of the deposited data

Results flagged for a closer look

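For 7 of the 9 genes the oxLDL change differed between the genotypes by edgeR's test of the interaction (the log2 change in KO minus that in WT), with Benjamini-Hochberg adjustment, where 41.7% of all genes tested were called. The difference was -1.83 for Acsl1, -1.46 for Acsl5, -0.55 for Acsl4 and -0.29 for Slc27a4, and it was 5.16 for Slc27a6, 0.43 for Slc27a1 and 0.18 for Lpl. The calls of Lpl, Slc27a1 and Slc27a4 were lost when some single libraries were left out, as given beside them. On library totals Slc27a4 turned to 0.12 and Acsl4 was -0.14, and neither was called.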

How the results depend on the processing

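The calls of Acsl1, Acsl5 and Slc27a6 in WT with oxLDL, between genotypes and in the interaction, and those of Lpl and Acsl3 outside the interaction, kept their direction and were called in every alternative run. On library totals, in limma with a pseudocount of 1 and with one of 0.1, Slc27a4 turned to -0.19, -0.17 and -0.19 for oxLDL in WT and to 0.12, 0.10 and 0.11 in the interaction. With upper quartile scaling Slc27a4 was called in neither of these contrasts. Values near 0 that changed sign were Slc27a6 for oxLDL in KO (-0.0037 in DESeq2, -0.0084 with upper quartile scaling) and Slc27a1 for KO against WT untreated (0.034 with upper quartile scaling, 0.0020 with no filter). Over single libraries left out, values that crossed 0 ran from -0.22 to 0.012 for Slc27a1 and -0.71 to 0.37 for Slc27a3 with oxLDL in WT; in KO from -0.15 to 0.40 for Slc27a3, -0.024 to 0.036 for Slc27a6, -0.0042 to 0.10 for Acsl1, -0.18 to 0.0044 for Acsl3 and -0.014 to 0.040 for Acsl5; from -0.077 to 0.078 for Slc27a1 between untreated genotypes; and from -0.20 to 0.88 for Slc27a3 in the interaction. Members called in the interaction ranged from 4 to 7, with 4 without untreated WT replicate 3. The count of all genes called with oxLDL in KO, 2, was 110 in DESeq2, 61 in the fit of the KO groups alone, 1 with no filter, 1 in limma with a pseudocount of 1, 0 with 0.1, 0 with the replicate block, and 0 to 3 without single libraries (0 without KO oxLDL replicate 3 and without untreated KO replicate 1 or 2). Libraries with the same number did not deviate together (correlations of -0.0451 to 0.0316), so the numbers were not taken as pairs. With the replicate block 7, 0, 7, 7 and 6 of the 9 genes were called in the 5 contrasts, and the interaction of Slc27a1 was lost at 0.42. The causes were not tested. Slc27a3, with 8 to 94 counts a library, and Slc27a6 in WT with oxLDL, with 0 to 10, were the members with the fewest counts.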

Other observations

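Acyl-CoA hydrolases, which split acyl-CoA back to fatty acid and coenzyme A, were measured for 10 of 12 listed genes. With oxLDL in WT 2 rose and 4 fell on the TMM scale (2 and 7 on library totals), where 51.2% of all genes tested were called. Acot7 rose by a log2 of 1.08 ± 0.10 in edgeR and Acot9 by 0.98 ± 0.07, whereas Acot6 fell by 2.26 ± 0.35, Acot2 by 2.21 ± 0.31, Acot11 by 1.71 ± 0.09 and Acot13 by 1.51 ± 0.12. Acot6 and Acot2 were scarce, at 0.223 and 1.14 FPKM in untreated WT and 0.0337 and 0.188 in WT with oxLDL. Acot13 was at 22.9 and 6.04 FPKM in these groups. Between untreated genotypes 3 of the 10 were called, against 31% of all genes. Untreated KO cells had more Acot11 than untreated WT cells, at 0.77 ± 0.09, and less Acot7, at -0.65 ± 0.10, and Acot9, at -0.34 ± 0.07.

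Of the 19 genes that pass acyl-CoA to oxidation, glycerolipids, phospholipids or cholesteryl esters, 9 were higher and 3 lower with oxLDL in WT on the TMM scale (63.2% called against 51.2% of all genes), and 5 were higher and 10 lower on library totals, so no direction is given for the list. Dgat2, which makes triglycerides, rose by 4.89 ± 0.30 and Lpcat2, a lysophospholipid acyltransferase, by 1.35 ± 0.06, whereas Soat1, which esterifies cholesterol, fell by 1.13 ± 0.03. Between untreated KO and WT the differences were -2.09 ± 0.38 for Dgat2, -2.94 ± 0.07 for Lpcat2 and 0.61 ± 0.03 for Soat1, and that of Dgat2 was not called in limma on log2(FPKM + 1). In KO cells oxLDL called none of the genes of either list in edgeR, DESeq2 or limma, and 1 of them, Dgat2, had an unadjusted p under 0.05 in edgeR.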
